A study of Mus musculus with 8 samples.

Results

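The 9 genes described here mark the lymphocytes that lie among the hepatocytes of the liver: Cd3e, Cd3d, Cd3g, Cd8a, Lck and Nkg7 for T and natural killer (NK) cells, and Cd79a, Cd79b and Ms4a1 for B cells. They were taken by gene name from a table of 45706 genes, each name matched 1 row, and all 9 were among the 14629 genes with enough counts to be tested. The livers came from 4 WT and 4 SA/SA mice, all female C57BL/6J animals of 4 months that had gone without food overnight, and each mouse gave 1 library. In SA/SA mice (labelled PLIN5 S155A), CRISPR-Cas9 editing had replaced the serine named in that label, a phosphorylation site of the lipid droplet protein PLIN5, with alanine in the whole body, in a line bred from a founder mouse, so lymphocytes carried the change as well as hepatocytes. No fed mice were among the libraries, so every value below belongs to the fasted state.

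T cells recognize antigen through a receptor whose signal is passed into the cell by the CD3 chains, and the kinase LCK is the first enzyme of that signal. B cells use a membrane immunoglobulin in the same way, with CD79A and CD79B as its signalling chains. NK cells kill without a receptor of this kind and share their granule proteins with cytotoxic T cells. The liver holds resident and passing lymphocytes of all these classes between its plates of hepatocytes. In RNA from a piece of tissue, fewer cells of a type and less RNA per cell cannot be told apart, and blood left in the vessels brings lymphocytes of its own.

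In the labels the tissue is liver and the cell type hepatocytes. The 10 hepatocyte genes listed for the check summed to between 100139 and 141533 CPM (a gene's count scaled to the TMM-normalized size of its library), and genes of Kupffer cells, endothelium and stellate cells were all present, so the libraries hold RNA of the whole tissue. Total counts were between 39709830 and 54540612, with the lowest total in SA/SA mouse 3. The mean CPM of Plin5 was 206 ± 32.3 in the WT group and 328 ± 118 in the SA/SA group (SD, n = 4 each), and gene counts cannot show which codon a transcript carried. Animal numbers in the labels form 2 series, under 200 for mice 1 and 4 of each genotype and over 800 for mice 2 and 3.

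The 3 CD3 genes lie together on chromosome 9 (GRCm38, GENCODE release M21) within 40056 bases. Cd3g (44969572 to 44980431, reverse strand) and Cd3d (44981786 to 44987339, forward strand) are read away from each other, with 1354 bases between their starts, and Cd3e follows at 44998740 to 45009627 on the reverse strand. The 250 bases before each of the paired starts are shown because this short interval lies before both genes (RefSeq, GRCm38.p6, each 5′ to 3′ on the strand of its gene). Capitals mark CAGGTG or its reverse complement CACCTG, letters of an E box, and AGGAAGT or its reverse complement ACTTCCT, letters of an ETS site. Cd3g is at chr9:44980432-44980681 on the reverse strand and Cd3d at chr9:44981536-44981785 on the forward strand.
Cd3g: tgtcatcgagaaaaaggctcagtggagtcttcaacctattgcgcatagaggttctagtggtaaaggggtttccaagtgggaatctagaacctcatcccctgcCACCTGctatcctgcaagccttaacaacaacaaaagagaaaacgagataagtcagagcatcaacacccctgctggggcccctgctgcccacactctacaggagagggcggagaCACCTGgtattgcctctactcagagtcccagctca
Cd3d: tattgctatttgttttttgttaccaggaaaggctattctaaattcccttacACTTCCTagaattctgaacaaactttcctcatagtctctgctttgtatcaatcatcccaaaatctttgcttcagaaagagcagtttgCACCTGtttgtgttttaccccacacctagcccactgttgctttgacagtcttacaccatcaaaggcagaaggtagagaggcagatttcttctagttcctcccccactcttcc
The E box letters occur at 2 places in the Cd3g stretch and at 1 place in the Cd3d stretch, which also holds the ETS letters once. Promoter windows of 300 bases (250 before and 50 after the start) were at hand for 7 of the 9 genes. The ETS letters were found in windows of 4 of them (Cd3e, Cd3d, Lck and Cd79a), against 9.35% of 32851 mouse promoters, and the E box letters in 5 (Cd3e, Cd3d, Cd3g, Lck and Cd79a), against 20.2%. Both motifs were searched on both strands and were chosen after these sequences had been viewed, so the shares are a description of letters only.

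No gene reached an adjusted p under 0.05 between SA/SA and WT mice in edgeR's quasi-likelihood test (0% of the 14629 genes), and each of the 9 markers had an adjusted p of 0.993. Without adjustment 497 genes (3.4%) had a p under 0.05, of which 208 (1.42% of all genes) were higher in SA/SA mice. Among the markers 1 of 9 did, Cd3d. All 9 had a log2 fold change above 0, where 48.8% of all genes did, and their median was 0.76 on the log2 scale against -0.0050 for all genes. This count rests in part on SA/SA mouse 3, which had the highest value of the 8 libraries for 8 of the 9 markers, compared with 14% of all genes. With that mouse left out, 7 of 9 were higher and the median was 0.28. Without WT mouse 2, 4 of 9 had an unadjusted p under 0.05 (Cd3d, Cd8a, Lck and Nkg7), where 684 of 14848 genes (4.61%) did in the same fit. Exact permutation tests of log2 CPM gave p-values between 0.171 (Cd8a) and 0.714 (Ms4a1) for the 8 markers other than Cd3d. The p-values of edgeR set the difference between genotypes against the spread between mice, which edgeR estimates with the help of all genes. The permutation tests rank that difference among all splits of these 8 mice into 4 and 4.

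Cd3d (ENSMUSG00000032094) encodes the CD3 delta chain. It stood at 0.261, 0.498, 0.274 and 0.355 CPM in WT mice 1 to 4 (13 to 25 counts) and at 0.704, 0.662, 0.871 and 0.672 CPM in SA/SA mice 1 to 4 (32 to 38 counts). The means were 0.347 ± 0.109 and 0.727 ± 0.0975 CPM (WT and SA/SA, ± SD, n = 4 each). Every SA/SA mouse lay above every WT mouse, which held for none of the other 8 markers and for 2.3% of all genes in either direction (0.943% with SA/SA higher). Cd3d was higher in SA/SA mice by 1.06 on the log2 scale (SE 0.34, 95% interval 0.31 to 1.81), with an unadjusted p of 0.0101 and an adjusted p of 0.993 in edgeR's test. The two-sided exact permutation test gave 0.0286, below which a comparison of 4 with 4 cannot go. This value follows from the lack of overlap and adds nothing to it. Within the low animal number series the difference was 1.08 and within the high one 0.96, and it stayed between 0.95 and 1.28 when each mouse was left out in turn. The SA/SA mice differed from each other no more than counting allows: the variance of their counts over that expected from counting alone (the dispersion index, 1 for counting error alone) was 0.537, and 1.73 in WT mice.

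The other 2 chains of the same complex did not separate the genotypes. Cd3e (ENSMUSG00000032093), the epsilon chain, stood at 0.541, 0.359, 0.400 and 0.533 CPM in WT mice 1 to 4 (18 to 29 counts) and at 0.482, 0.786, 1.40 and 0.435 CPM in SA/SA mice 1 to 4 (22 to 53 counts). This gave means of 0.458 ± 0.0925 and 0.775 ± 0.444 CPM in WT and SA/SA mice (± SD, n = 4 each). Only SA/SA mice 2 and 3 were above the WT range, and SA/SA mice 1 and 4 were inside it. The log2 fold change was 0.74 (SE 0.43, 95% interval -0.21 to 1.70, unadjusted p 0.112 in edgeR's test). Within the low animal number series it was -0.21 and within the high one 1.38. The test of that difference between series gave 1.74 on the log2 scale with an unadjusted p of 0.0343 and an adjusted p of 0.410 in edgeR's quasi-likelihood test. Of all genes, 11.1% had an unadjusted p under 0.05 in this interaction test and 0% an adjusted one, and Cd3e was the 1 of 9 markers that did. It did not with DESeq2 (unadjusted p 0.0756) or with no filter on low counts (0.0692). In edgeR's fit with no filter Cd79b (0.00536) and Ms4a1 (0.0321) did, neither after adjustment. The share of all genes at such a p was not counted in either fit, so these calls cannot be set against it.

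Cd3g (ENSMUSG00000002033), the gamma chain, stood at 0.615, 0.957, 0.568 and 0.908 CPM in WT mice 1 to 4 (27 to 48 counts) and at 0.853, 0.538, 1.69 and 0.771 CPM in SA/SA mice 1 to 4 (26 to 64 counts). WT mice averaged 0.762 ± 0.198 CPM and SA/SA mice 0.963 ± 0.503 CPM (± SD, n = 4 each). SA/SA mouse 3 was the highest and SA/SA mouse 2 the lowest of all 8 libraries. The log2 fold change was 0.33 (SE 0.40, 95% interval -0.56 to 1.22, unadjusted p 0.430 in edgeR's test), and without SA/SA mouse 3 it was -0.077. In the annotation an antisense gene, Gm48719, and a same-strand one, Gm48720, overlap Cd3e, and neither has a row in the count table. Whether strand was used in the counting is not given in the sources used here, so reads of Cd3e and its overlapping genes are uncertain.

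**Figure D1:**
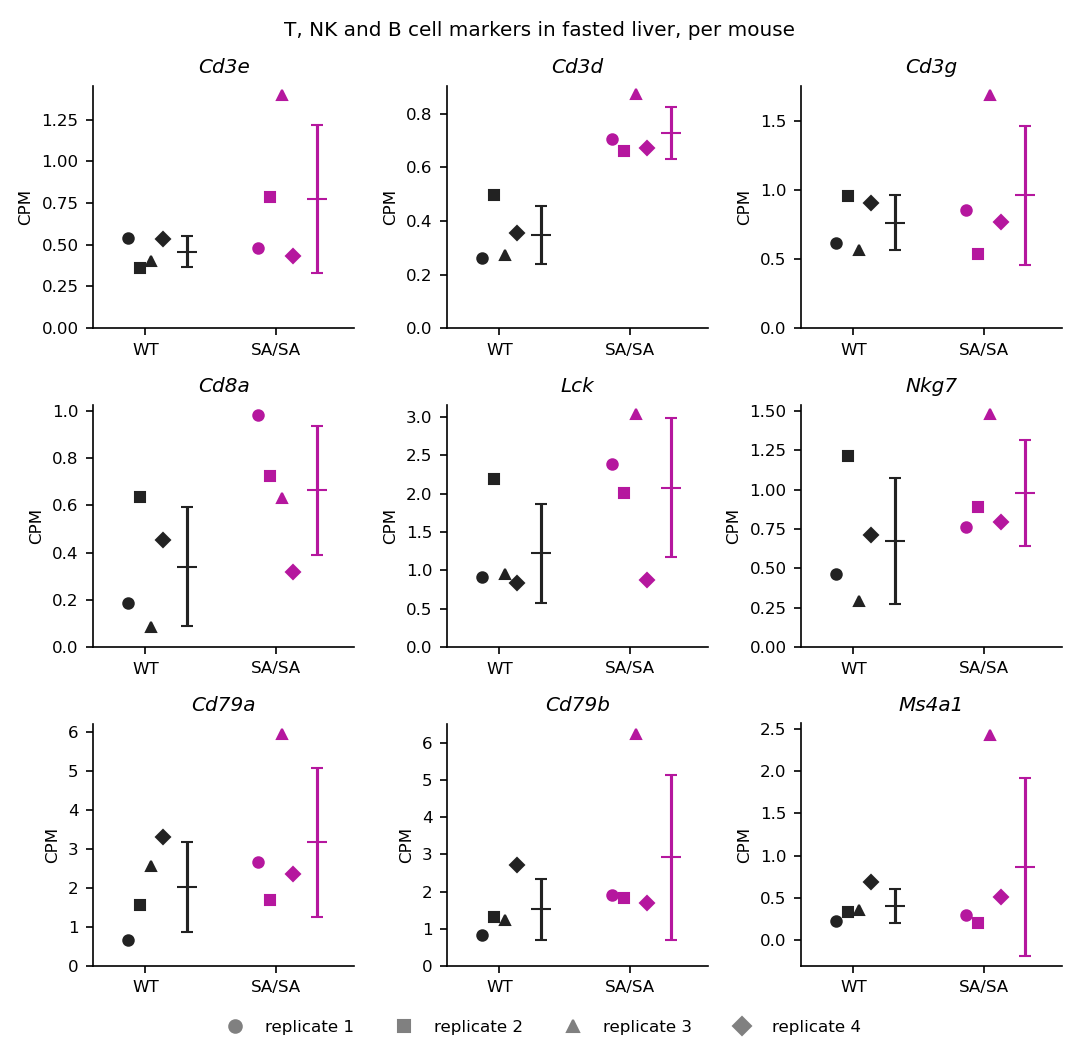
Expression of the 9 lymphocyte markers in fasted liver, in CPM on a linear axis per gene. Each symbol is 1 mouse (the symbol's shape gives its number), and the bars are the mean and SD of 4 WT or 4 SA/SA mice. Cd3d is the 1 marker in which the genotypes do not overlap, and SA/SA mouse 3 is the highest library for 8 of 9 markers, with Cd8a the exception.

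Lck and Cd8a are the other members that belong to T cells. Lck (ENSMUSG00000000409, chromosome 4, 129548344 to 129573641, reverse strand), the kinase bound to the CD4 and CD8 coreceptors, stood at 0.914, 2.19, 0.947 and 0.829 CPM in WT mice 1 to 4 (42 to 110 counts) and at 2.39, 2.01, 3.04 and 0.870 CPM in SA/SA mice 1 to 4 (44 to 129 counts). The means were 1.22 ± 0.650 and 2.08 ± 0.909 CPM (WT and SA/SA, ± SD, n = 4 each). The values fell apart into low and high livers inside both genotypes: WT mouse 2 was above the range of 0.829 to 0.947 CPM of the other 3 WT mice, and SA/SA mouse 4 was in the range of those 3. For Lck the log2 fold change was 0.76 (SE 0.44, 95% interval -0.21 to 1.74, unadjusted p 0.112 in edgeR's test). Without WT mouse 2 it was 1.21, with an unadjusted p of 0.0171 and an adjusted p of 0.913 in edgeR's test. The dispersion index was 17.4 in WT and 18.7 in SA/SA mice, so the spread between livers was far above counting error.

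Cd8a (ENSMUSG00000053977, chromosome 6, 71373427 to 71379173, forward strand) encodes the coreceptor chain of cytotoxic T cells, which is also carried by some dendritic cells. It stood at 0.186, 0.638, 0.0842 and 0.454 CPM in WT mice 1 to 4 (10, 32, 4 and 23 counts) and at 0.982, 0.724, 0.634 and 0.316 CPM in SA/SA mice 1 to 4 (53, 35, 24 and 16 counts). This gave means of 0.341 ± 0.252 and 0.664 ± 0.275 CPM in WT and SA/SA mice (± SD, n = 4 each). WT mouse 3 was lowest, with 4 counts and an exact Poisson 95% interval of 1.09 to 10.2 counts, which covers counting error only. The highest value was in SA/SA mouse 1, and this was the 1 marker that SA/SA mouse 3 did not lead. For Cd8a the log2 fold change was 0.96 (SE 0.59, 95% interval -0.35 to 2.27, unadjusted p 0.133 in edgeR's test), and the groups overlapped.

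Cd4, the helper coreceptor and no member, was read beside Cd8a. It stood between 0.392 and 0.578 CPM in 7 libraries and at 2.48 CPM in SA/SA mouse 3. Cd4 exceeded Cd8a by 3.92-fold in SA/SA mouse 3 and by 6.0-fold in WT mouse 3, whose Cd8a was the 4 counts given above, and the ratio was between 0.585 and 2.1 in the other 6. Kupffer cells and dendritic cells can also carry Cd4, so the ratio is one of transcripts and not of T cell classes.

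Nkg7 (ENSMUSG00000004612, chromosome 7, 43437073 to 43438249, forward strand) encodes a granule protein of NK cells and cytotoxic T cells. It stood at 0.466, 1.22, 0.295 and 0.711 CPM in WT mice 1 to 4 (14 to 61 counts) and at 0.760, 0.889, 1.48 and 0.791 CPM in SA/SA mice 1 to 4 (40 to 56 counts). WT mice averaged 0.672 ± 0.401 CPM and SA/SA mice 0.980 ± 0.337 CPM (± SD, n = 4 each). SA/SA mice were all above 3 of the WT mice, and WT mouse 2 was above 3 of the SA/SA mice. The log2 fold change was 0.54 (SE 0.45, 95% interval -0.47 to 1.54, unadjusted p 0.263 in edgeR's test), and 0.28 without SA/SA mouse 3 as against 0.99 without WT mouse 2.

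The B cell genes spread most widely within the SA/SA group, through mouse 3. Cd79a (ENSMUSG00000003379, chromosome 7, 24897381 to 24902197, forward strand) stood at 0.653, 1.55, 2.57 and 3.32 CPM in WT mice 1 to 4 (35 to 168 counts) and at 2.67, 1.70, 5.97 and 2.35 CPM in SA/SA mice 1 to 4 (82 to 226 counts). The means were 2.02 ± 1.16 and 3.17 ± 1.91 CPM (WT and SA/SA, ± SD, n = 4 each). SA/SA mice 1, 2 and 4 were inside the WT range, and SA/SA mouse 3 was above it. For Cd79a the log2 fold change was 0.64 (SE 0.51, 95% interval -0.49 to 1.78, unadjusted p 0.236 in edgeR's test), which came to 0.15 without SA/SA mouse 3.

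Cd79b (ENSMUSG00000040592, chromosome 11, 106311341 to 106314762, reverse strand) stood at 0.820, 1.32, 1.22 and 2.72 CPM in WT mice 1 to 4 (44 to 138 counts) and at 1.91, 1.82, 6.26 and 1.70 CPM in SA/SA mice 1 to 4 (86 to 237 counts). This gave means of 1.52 ± 0.831 and 2.92 ± 2.22 CPM in WT and SA/SA mice (± SD, n = 4 each). WT mouse 1 was the lowest library for both chains, and SA/SA mouse 3 was 3.28-fold above the next SA/SA mouse for Cd79b and 2.23-fold for Cd79a. The log2 fold change of Cd79b was 0.93 (SE 0.51, 95% interval -0.20 to 2.07, unadjusted p 0.0971 in edgeR's test), and 0.25 without that mouse. Its remaining 3 SA/SA livers had a dispersion index of 0.315, against 74.3 with all 4.

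Ms4a1 (ENSMUSG00000024673, chromosome 19, 11249675 to 11266241, reverse strand) encodes CD20, a surface protein of B cells that is lost when they become plasma cells. It stood at 0.224, 0.339, 0.358 and 0.691 CPM in WT mice 1 to 4 (12 to 35 counts) and at 0.297, 0.207, 2.43 and 0.514 CPM in SA/SA mice 1 to 4 (16, 10, 92 and 26 counts). WT mice averaged 0.403 ± 0.201 CPM and SA/SA mice 0.862 ± 1.05 CPM (± SD, n = 4 each). All SA/SA mice but mouse 3 were at or below the WT range's top, and SA/SA mouse 2 was the lowest of the 8. The log2 fold change was 1.07 (SE 0.75, 95% interval -0.61 to 2.75, unadjusted p 0.185 in edgeR's test) and -0.24 without SA/SA mouse 3. With all 8 mice it was 0.42 with limma-voom and 0.51 with the replicate number as a block. Its size thus depended on the fit and on 1 liver, and its sign on that liver.

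**Figure D2:**
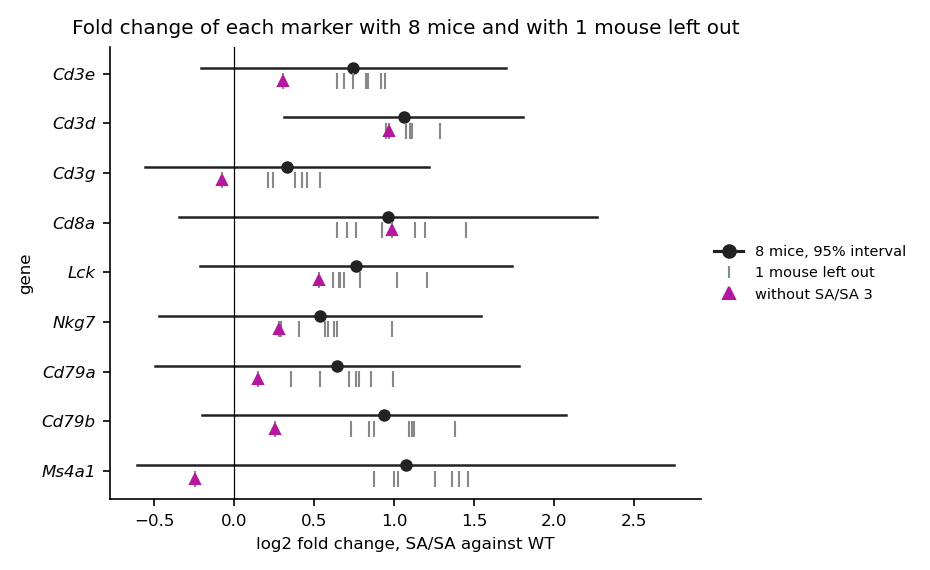
Log2 fold change of SA/SA against WT for the 9 markers, with a bar for the 95% interval from edgeR (8 mice), grey ticks for the fits that left out 1 mouse each, and a triangle for the fit without SA/SA mouse 3. The interval of Cd3d (0.31 to 1.81) is the 1 that does not reach 0, and the triangles of Cd3g and Ms4a1 lie below 0.

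SA/SA mouse 3 was set against the median of the other 7 libraries. It was 1.40- to 3.20-fold higher for the 6 T and NK markers (median 2.07) and 2.54- to 7.17-fold higher for the 3 B markers (median 3.68). The same ratio had a median of 0.997 over all genes, and 5.13% of all genes reached 2-fold, as 6 of the 9 markers did. Its elevation was graded. Over the next SA/SA mouse it was 4.72-fold for Ms4a1, 3.28-fold for Cd79b, 2.23-fold for Cd79a and 1.98-fold for Cd3g. For Cd3e it was 1.78-fold, for Nkg7 1.66-fold, for Lck 1.27-fold and for Cd3d 1.24-fold. Its Cd8a was 0.645 of the highest other SA/SA mouse. Ptprc, the leukocyte antigen CD45, was 11.2 CPM in this liver and 3.78 to 7.82 CPM in the others. Its red blood cell genes summed to 953 CPM, within the range of 412 to 2652 CPM over the 8 livers, and its hepatocyte sum of 141533 CPM was the highest. What part these levels or its lower total count have in its marker values was not tested.

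**Figure D3:**
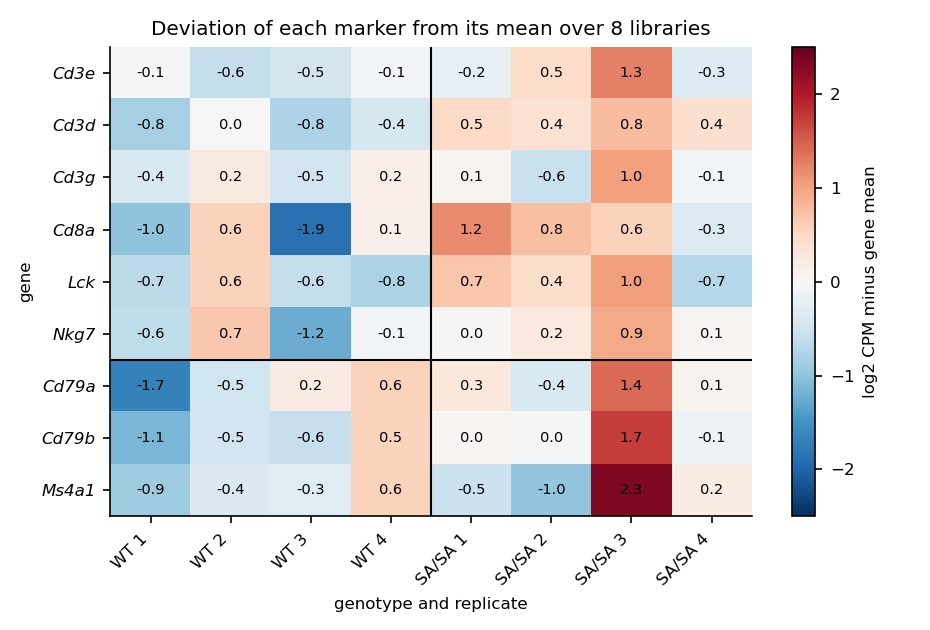
Level of each marker in each library as log2 CPM minus that gene's mean over the 8 libraries, with red above and blue below the mean. Lines separate T and NK from B genes and WT from SA/SA. The column of SA/SA mouse 3 is red for all B genes and darkest for Ms4a1, and the B genes are blue in WT mouse 1.

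The balance of B to T and NK transcripts overlapped between the genotypes. The 6 T and NK markers summed to 2.98, 5.86, 2.57 and 3.79 CPM in WT mice 1 to 4 and to 6.17, 5.60, 9.11 and 3.86 CPM in SA/SA mice 1 to 4. The 3 B markers summed to 1.70, 3.21, 4.15 and 6.73 CPM in WT mice and to 4.88, 3.72, 14.7 and 4.57 CPM in SA/SA mice. The ratio of the B sum to the T and NK sum was therefore 0.569, 0.548, 1.61 and 1.78 in WT mice 1 to 4 and 0.790, 0.664, 1.61 and 1.18 in SA/SA mice. In both genotypes mice 1 and 2 had more T and NK than B transcript and mice 3 and 4 the reverse. This division cuts across the animal number series, since mice 1 and 4 share one and mice 2 and 3 the other.

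**Figure D4:**
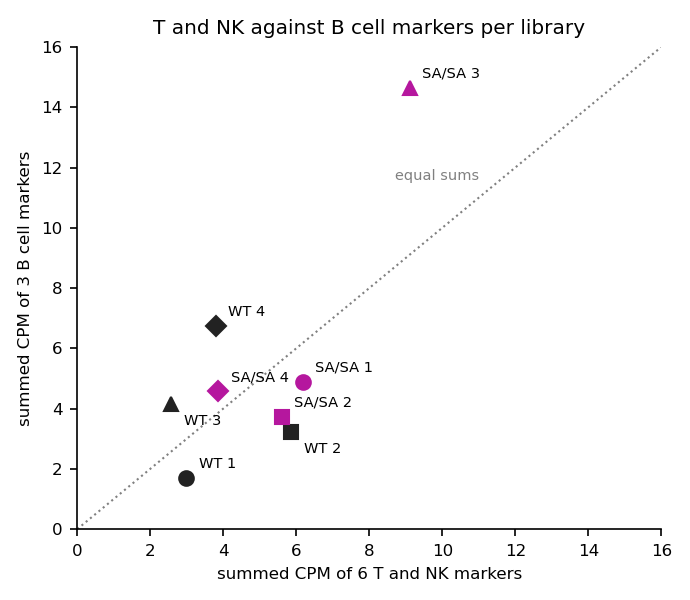
Summed CPM of the 3 B cell markers against summed CPM of the 6 T and NK markers, 1 symbol per liver (black WT, magenta SA/SA, shape by mouse number), with a dotted line where the sums are equal. WT and SA/SA livers 1 and 2 lie below the line and livers 3 and 4 above it, and SA/SA mouse 3 is at 9.11 and 14.7 CPM.

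The likeness of the markers to each other depended on SA/SA mouse 3. Over all 8 libraries, the median Pearson correlation of log2 CPM was 0.546 for the 15 pairs of T and NK markers, 0.881 for the 3 pairs of B markers and 0.504 for the 18 pairs that join a T or NK with a B marker. Without that liver the medians over 7 libraries were 0.499, 0.682 and 0.152. Single pairs departed from them, as Cd3e with Cd3g at -0.51 and Cd3g with Ms4a1 at 0.60 over 7. The points share libraries, and counts this low bring sampling error, so these are descriptions. Levels between genes were compared as mean CPM per kilobase of exon over the 8 livers: Cd79a stood highest at 1.78, then Cd79b 1.55, Nkg7 0.903, Lck 0.563, Cd3d 0.296, Cd3g 0.264, Cd3e 0.151, Cd8a 0.138 and Ms4a1 0.102. Of the 8 steps between neighbours in this order, 0 were wider than the SD over the 8 livers of both genes. That SD pools the genotypes and includes SA/SA mouse 3, and neighbours were not compared within each liver.

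Other genes listed for the same cells were read, with all 8 mice and again without SA/SA mouse 3. Without that mouse the filter was applied anew and kept more genes of some lists, so their medians cover different genes. Tested genes went from 8 to 10 for other T cell surface genes and from 10 to 11 for T cell signalling genes. They went from 9 to 11 for NK and cytotoxic genes and from 8 to 9 for monocyte and neutrophil genes. Of the T cell receptor genes and Cd247, the zeta chain, 4 of 4 tested were higher in SA/SA mice (median log2 fold change 0.61, or 0.23 without that mouse) with none at an unadjusted p under 0.05. Trac, the receptor's alpha constant gene, was 2.53 CPM in SA/SA mouse 3 and 0.316 to 1.12 CPM in the others. Of the other T cell surface genes 7 of 8 were higher (median 0.46, or 0.26 without it) and none passed, and Cd4 was the highest at 0.99 and the costimulator Icos the lowest at -0.23. Among T cell signalling genes and transcription factors 7 of 10 were higher (median 0.21, or 0.15 without it), and the adaptor Skap1 had an unadjusted p of 0.0421 at 1.18 (adjusted p 0.993 in edgeR's test). The TCR adaptor Lcp2 stood at -0.28, so the genes of this list pointed both ways. Lcp2 was at 2.82 to 5.65 CPM and Lck at 0.829 to 3.04 CPM. In RNA of the whole tissue the Lcp2 transcript cannot be assigned to T cells.

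Of the NK and cytotoxic genes 6 of 9 were higher, with a median of 0.088. Without SA/SA mouse 3 the median was 0.0086 over 11 genes. In that edgeR fit no gene of this list or of the T cell signalling list had an unadjusted p under 0.05. Klrb1c, which encodes the NK receptor NK1.1, was higher in SA/SA mice by 1.33 on the log2 scale with an unadjusted p of 0.0137 and an adjusted p of 0.993 in edgeR's test. It stood at 0.298, 0.219, 0.400 and 0.651 CPM in WT mice 1 to 4 and at 0.982, 0.786, 1.61 and 0.593 CPM in SA/SA mice 1 to 4, with SA/SA mouse 4 below WT mouse 4. The killing genes went both ways, with Prf1 (perforin) at -0.62, Gzma (granzyme A) at -0.23 and Gzmb (granzyme B) at 0.41, and Ncr1, the receptor NKp46, was too low to be tested (1 to 14 counts).

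The B cell lists changed sign without SA/SA mouse 3. Of other B cell surface genes 8 of 11 were higher (median 0.32) and of B cell signalling genes and transcription factors 10 of 12 (median 0.40), with none at an unadjusted p under 0.05. With that liver left out the medians were -0.081 (5 of 11 higher) and -0.13 (5 of 12 higher). In that edgeR fit 1 of the 12 signalling genes and factors was lower in SA/SA mice at an unadjusted p under 0.05. Such a p was found for 2.43% of all genes there, none after adjustment. Cd22, an inhibitory receptor, was 8.37 CPM in SA/SA mouse 3 and 1.29 to 3.73 CPM elsewhere, and the coactivator Pou2af1 was 8.26 against 0.257 to 1.03 CPM. The complement receptor Cr2 at -1.36 and the B lineage factor Pax5 at -1.15 had log2 fold changes below 0.

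Plasma cell and immunoglobulin genes were the most uneven: they summed to 2378 CPM in SA/SA mouse 3 and to 24.6 to 60.4 CPM in the other 7 livers. Of 13 tested, 13 were higher and 12 had an unadjusted p under 0.05, none after adjustment, with a median of 3.64, where 3.4% of all genes had such a p. Without SA/SA mouse 3 the median was 0.36 and 0 of 13 had an unadjusted p under 0.05, with 362 of 14881 genes (2.43%) so called in that fit by edgeR. Cell cycle genes went with them in that liver, at 31.5 CPM against 8.48 to 17.4 CPM, with 9 of 9 higher and a median of 0.55 (0.047 without it). The 10 pan-leukocyte genes were higher in 9 cases with a median of 0.25, and 7 of them were highest in that liver, without which 4 of 10 were higher and the median was -0.021. Their part in the marker values was not tested. Lymphocyte homing genes had a median of 0.11 (7 of 11 higher), or -0.11 without SA/SA mouse 3. Stroma and chemokine genes of lymphoid tissue had a median of 0.045 (3 of 6 higher), or -0.011 without it. In edgeR's fit without SA/SA mouse 3, 1 of these 6 was lower in SA/SA mice at an unadjusted p under 0.05. Within this last list the T zone chemokine Ccl19 was 2.53 CPM in SA/SA mouse 3 and 0.167 to 0.868 CPM elsewhere, and Ltb, encoding lymphotoxin beta, 3.64 against 0.653 to 2.15 CPM.

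Cells of other lineages were read in the same way. Kupffer cell and macrophage genes were higher in 12 of 12 (median 0.21), with 1 of them highest in SA/SA mouse 3. Their median difference was -0.45 within the low animal number series and 0.85 within the high one. Monocyte and neutrophil genes were higher in 7 of 8 (median 0.57, or 0.30 over 9 genes without SA/SA mouse 3). Their medians were 0.074 within the low series and 0.99 within the high one. Hepatocyte genes were higher in 8 of 10 (median 0.11, or 0.018 without that liver). Their medians were -0.12 within the low series and 0.31 within the high one. The remaining lists had medians below 0: dendritic cells -0.090 (4 of 9 higher), sinusoidal endothelium -0.15 (3 of 10), stellate cells -0.31 (1 of 10), cholangiocytes -0.27 (1 of 6), red blood cells -0.49 (0 of 7) and pancreatic acinar cells -1.75 (0 of 2). In these lists, the endothelial receptor Stab1 (0.45, unadjusted p 0.0326) and the acinar protease Cela2a (-3.27, unadjusted p 0.0474) passed without adjustment and not with it (adjusted p 0.993 each in edgeR's test). No endothelial gene had an unadjusted p under 0.05 in edgeR's test without SA/SA mouse 3. In that fit 1 Kupffer cell and macrophage gene had one and was higher in SA/SA mice. Lower in SA/SA mice at such a p were 1 dendritic, 2 stellate and 1 acinar cell gene. Of all 14881 genes in that fit, 119 had one and were higher and 243 had one and were lower, none after adjustment. The acinar genes summed to 44.1 CPM in WT mouse 2 and to 4.27 to 6.58 CPM in the others. WT mouse 2 was also the WT liver with the highest level of 5 of the 6 T and NK markers, all but Cd3e, and the part of acinar cells in that was not tested.

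**Figure D5:**
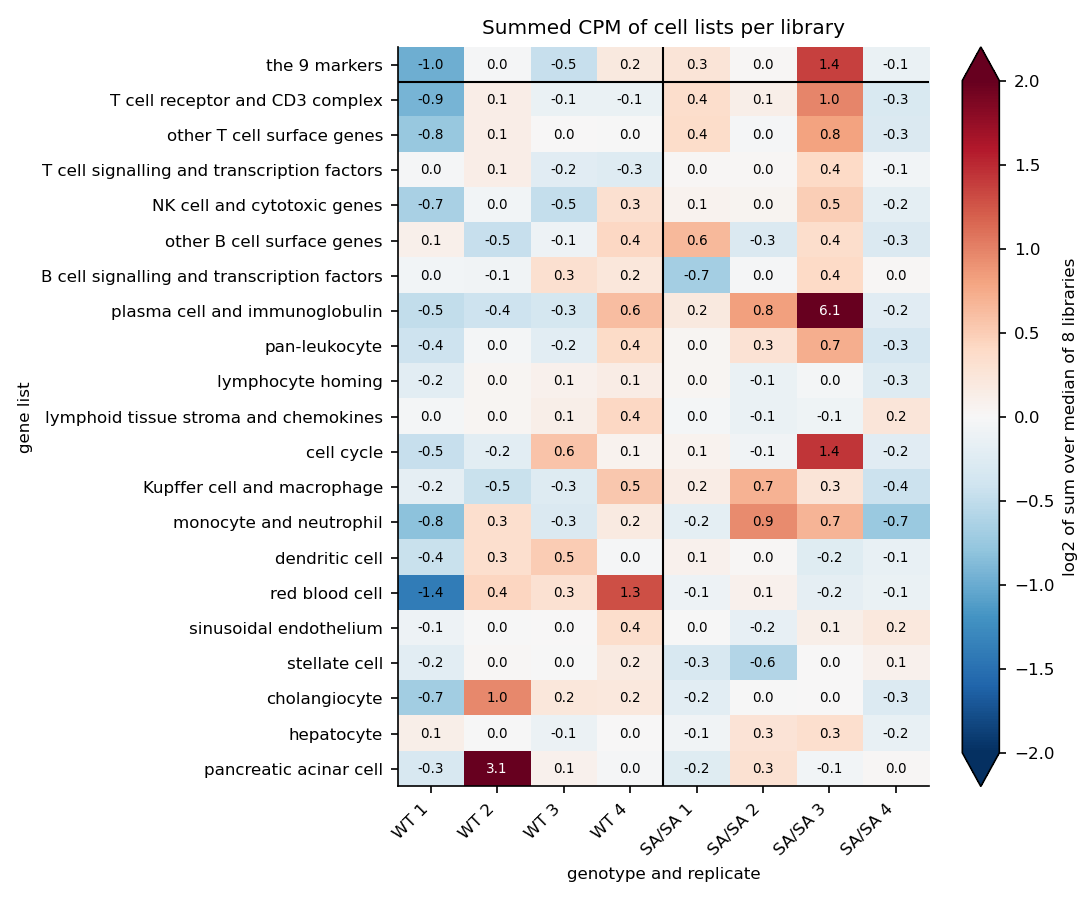
Summed CPM of each gene list in each library, as log2 of the sum over that list's median of the 8 libraries (color scale from -2 to 2, values beyond it shown at its end). The 9 markers, plasma cell and cell cycle rows are red in SA/SA mouse 3, the red blood cell row is highest in WT mouse 4, and the acinar row in WT mouse 2.

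Among the 10 genes whose pattern over the 8 libraries was most like the mean of the 9 markers were Slc1a5 (r = 0.977), A430105I19Rik (0.970), Plcd1 (0.961), Gcsam (0.952), Dchs1 (0.936), Panx1 (0.935), Rpl30-ps10 (0.934), Sema4b (0.929) and AU020206 (0.929), as Pearson correlations of log2 CPM. Gcsam is a gene of germinal centre B cells. With SA/SA mouse 3 left out, 1 of the 10 most alike remained, A430105I19Rik (r = 0.969 over 7 libraries), and the list then held the ribosomal protein genes Rps9 and Rpl10a and no lymphocyte gene of the lists used here.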

How the data were processed

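Liver RNA of 4 WT and 4 SA/SA mice was sequenced by the authors as stranded mRNA libraries. The table deposited by the authors holds salmon's estimated counts summed per gene, length-scaled between samples but not scaled to library size. The submitters' processing notes name STAR, SAMtools, bcl2fastq, MultiQC and DESeq2 and build GRCm38. Versions, annotation release and strand setting are not given in the sources used here. Columns were matched to mice by the animal numbers in the labels. Total counts were between 39709830 and 54540612, and intervals from counts cover counting error only.

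The estimated counts were rounded, filtered with filterByExpr (14629 of 45706 genes kept), normalized by TMM and tested in R 4.3.3 with edgeR 4.0.16 (glmQLFit, glmQLFTest). The 8 mice entered without a block, and p-values were adjusted by Benjamini-Hochberg over all genes tested. CPM uses TMM-normalized library sizes, and log2 CPM a prior count of 2. Standard errors come from the F statistic. The log2 CPM of single genes was also compared by exact permutation (two-sided), and the interaction of genotype with animal number series was fitted in edgeR. The tests were checked on simulated counts. No pair of libraries was a copy.

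The 9 members, the 20 gene lists and the tests were chosen with earlier results of these data known, and the lists get no test of their own. Genes named beside the members were, of each list, those at an unadjusted p under 0.05 and the 2 highest and 2 lowest fold changes, the 10 genes most like the members over 8 and over 7 libraries, Ptprc and Plin5. Trac, Cd22, Gzmb and Ncr1 were named after their values were seen, where this rule did not give them, and some genes that it gave are not reported here. Alternatives were DESeq2 1.42.0, voom of limma 3.58.1, other scaling and filters, a robust fit, blocks for replicate number and animal series, and leaving out each mouse. Coordinates were matched by gene identifier to GENCODE M21 (45143 of 45706 identifiers).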

Additional observations from a re-analysis of the deposited data

Results flagged for a closer look

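In groups of 4 mice, 26 sets of values were searched for a mouse far from the other 3, and 4 were found. About 1 would be found by chance if the sets were independent. They were not, since the sums hold markers that were also searched singly. Cd79b, Ms4a1 and the summed B cell markers flagged the same liver, SA/SA mouse 3. Lck was 2.19 CPM in WT mouse 2 and 0.829 to 0.947 CPM in the other WT mice. Cd79b was 6.26 CPM in SA/SA mouse 3 and 1.70 to 1.91 CPM in the other SA/SA mice. Ms4a1 was 2.43 CPM in SA/SA mouse 3 and 0.207 to 0.514 CPM in the others. The summed B cell markers were 14.7 CPM in SA/SA mouse 3 and 3.72 to 4.88 CPM in the others. Cd3e differed between genotypes in opposite directions in the 2 animal number series, and the difference between the series was 1.74 on the log2 scale, with an unadjusted p of 0.0343 and an adjusted p of 0.410 in edgeR's quasi-likelihood test. That unadjusted p was 0.0756 with DESeq2 and 0.0692 with no filter on low counts. In edgeR's fit with no filter it was Cd79b (0.00536, adjusted p 0.114) and Ms4a1 (0.0321, adjusted p 0.361) that had one under 0.05. In the main interaction fit 11.1% of all genes had one, and in these other fits that share was not counted.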

How the results depend on the processing

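With DESeq2 in place of edgeR, 7 genes were called and no marker was among them. With limma-voom, the robust fit, the other scalings and filters, both blocks and each mouse left out, 0 genes were called, with 357 (without WT mouse 3) to 894 (without SA/SA mouse 1) genes at an unadjusted p under 0.05 when a mouse was left out, against 497 with all 8 mice. No marker had an adjusted p under 0.798 in any of these fits. Without SA/SA mouse 3 the log2 fold change was -0.077 for Cd3g and -0.24 for Ms4a1. With each mouse left out in turn, Cd3g ranged from -0.077 to 0.53, Ms4a1 from -0.24 to 1.46 and the median of the markers from 0.28 to 1.02. With limma-voom Cd3g was 0.20 and Ms4a1 0.42, and with the replicate block Ms4a1 was 0.51. The other 7 markers stayed above 0 in all fits run. Beside Cd3d, the markers at an unadjusted p under 0.05 were Cd8a (0.0443), Lck (0.0171) and Nkg7 (0.0478) without WT mouse 2, Cd79b (0.0258) without WT mouse 4 and Lck (0.0266) without SA/SA mouse 4, all with adjusted p of at least 0.913 in edgeR. Of all genes, 4.61% had such a p without WT mouse 2, 3.08% without WT mouse 4 and 4.2% without SA/SA mouse 4. Of the 10 genes most like the markers, 1 was shared without SA/SA mouse 3 and 3 with Spearman in place of Pearson. A filter of at least 1 CPM in 4 libraries left 3 of the 9 markers. Most markers spread between livers by more than counting error, so depth alone does not set their precision. Library size alone moved the median of all genes to -0.042 and that of the markers to 0.73. The fits of the gene lists without SA/SA mouse 3 were added after seeing the data. The causes of these changes were not tested. The deviations of same-numbered mice had correlations of 0.0565, 0.166, -0.111 and 0.129. Each WT mouse but mouse 3 correlated best with the SA/SA mouse of its own number. Whether the numbers stand for pairs cannot be told from this, and the main test did not take them as pairs. With a replicate block 0 genes were called, 9 of 9 markers were higher and their median was 0.70.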
